A study of Homo sapiens with 24 samples.

Results

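The heat shock protein and DNAJ genes were 72 of the 57820 genes counted in this series. They were chosen by gene name alone: the HSP70 family (HSPA genes), the small heat shock proteins (HSPB genes), the HSP90 family, HSPH1, HSPD1, HSPE1 and the DNAJA, DNAJB and DNAJC genes. The rule used no measured value, but it was set with earlier results of these data known. RNA was sequenced from 24 libraries of human osteosarcoma cells, 3 biological replicates in each of 8 groups, to compare how WT and ID3-KO cells respond to mocetinostat, an inhibitor of class I histone deacetylases. Before recovery, WT and ID3-KO U2OS cells received no drug or mocetinostat for 24 h. After recovery, WT and ID3-KO AID-DIvA U2OS cells were untreated or received mocetinostat for 24 h followed by a recovery of 24 h. The labels of the U2OS libraries name no recovery, so that stage was taken from the methods. In all 12 AID-DIvA samples the treatment field of the labels names the opposite of the title. Groups follow the titles, with which the library names go together. If the field were right, every treatment value and interaction after recovery would change sign, and the contrasts drawn here between the stages would change as well. The AID-DIvA cells called untreated here would then be the treated ones, and their KO against WT comparison one of treated cells. All 4 AID-DIvA groups carry an integrated AsiSI vector, whose nuclease reaches the nucleus only with 4-hydroxytamoxifen, an agent that the labels of these libraries do not name. Neither the dose of mocetinostat nor the number of KO clones was given for this experiment. The library names of the U2OS samples also carry the letters DivA. Stage and cell line label coincide and cannot be told apart.

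Heat shock proteins are chaperones that bind unfolded or partly folded proteins. HSP70 proteins work through cycles of ATP hydrolysis that DNAJ proteins start and that HSP110 proteins, acting as nucleotide exchange factors, complete. Some members, such as HSPA1A, HSPA1B, HSPA6, DNAJB1 and HSPB1, are strongly induced when heat shock factor HSF1 binds repeated heat shock elements in their promoters, others such as HSPA8 and HSP90AB1 are made at all times, and separate sets serve the endoplasmic reticulum and the mitochondria.

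Total counts per library lay between 37878751 and 76906266, members took 1.44% to 1.63% of them, and mitochondrial genes took 5.59% to 9.47%. COL1A1, the main collagen of bone, was counted at 823.9 to 2529 CPM (counts scaled to the library size by the TMM method) and VIM at 433 to 944.1 CPM, whereas COL1A2, the partner chain of COL1A1, did not exceed 1.37 CPM. Of the other bone and mesenchymal markers, SPARC lay between 871.3 and 1550 CPM, RUNX2 between 11.79 and 47.97 CPM and ALPL between 0.6186 and 6.954 CPM. Before recovery 4 of these 6 markers (COL1A1, SPARC, RUNX2 and ALPL) were lower in treated cells of either genotype, and COL1A2 was higher in KO cells (log2 1.01). After recovery 1 of the 6 was higher and 2 lower in WT cells, and 2 were higher and 3 lower in KO cells. ALB of hepatocytes and PTPRC of leukocytes did not exceed 0.0344 and 0.407 CPM. The epithelial marker EPCAM, at 4.426 to 10.4 CPM, was higher in treated cells in all 4 comparisons, by 0.66 (adjusted p = 0.00079) in WT and 0.79 (adjusted p = 8.1e-09) in KO cells before and by 0.28 (adjusted p = 0.019) and 0.46 (adjusted p = 0.0014) after recovery on the log2 scale. The part of these markers in the results below was not tested. ID3 itself was lower but still counted in the KO libraries. Untreated U2OS cells held 80.7, 54.26 and 52.14 CPM of ID3 in WT and 32.26, 30.18 and 29.28 CPM in KO cells, a log2 difference of -1.03 (SE 0.17, adjusted p = 0.0065), or -0.80 without WT replicate 1, and the difference in untreated AID-DIvA cells was -0.56 (SE 0.07, adjusted p = 8.4e-06). WT untreated U2OS replicate 1 stood apart from its replicates. The SD of the log2 difference over genes was 0.3795 to 0.3829 in pairs with it, 0.2313 to 0.2734 in pairs with KO recovered AID-DIvA replicate 1 and 0.1372 to 0.2071 in all other pairs of replicates. Where leaving out either library changed a call named here, or moved a called value by more than 1.5 times, its value without that library is given.

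The promoters of the members that lead the results are shown first, because they show which members hold the letters of the heat shock element and which those of the endoplasmic reticulum stress element. Promoter windows of RefSeq (build GRCh38.p14, which is not the hg19 build of the counts) reached from 250 bases before to 50 bases after a start and were matched to 63 of the 72 members. A heat shock element of 2 units was searched as GAANNTTC or TTCNNGAA on both strands, and an element of 3 units as the same letters followed by a further inverted unit, so that each match of 3 units also holds matches of 2. Letters for 2 units were found in 23 of the 82 member windows (28%), against 13.5% of all 35116 windows, and letters for 3 units in 7 windows (8.54%), against 0.49% of all windows. The 7 members with 3 units were DNAJA1, DNAJB6, HSP90AA1, HSP90AB1, HSPA6, HSPA8 and HSPD1. The 250 bases before the start of 6 genes of the heat-inducible and cytosolic groups are printed with the 2-unit letters in capitals.
HSPA1A: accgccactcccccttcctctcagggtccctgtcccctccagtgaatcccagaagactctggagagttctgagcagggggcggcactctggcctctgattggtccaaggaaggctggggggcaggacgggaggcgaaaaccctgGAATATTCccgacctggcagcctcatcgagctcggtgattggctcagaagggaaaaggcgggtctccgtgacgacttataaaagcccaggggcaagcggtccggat
HSPA1B: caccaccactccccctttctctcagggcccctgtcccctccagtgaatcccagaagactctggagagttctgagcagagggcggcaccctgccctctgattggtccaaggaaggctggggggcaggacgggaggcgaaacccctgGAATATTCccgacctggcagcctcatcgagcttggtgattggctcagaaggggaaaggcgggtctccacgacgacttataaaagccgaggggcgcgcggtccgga
HSPA6: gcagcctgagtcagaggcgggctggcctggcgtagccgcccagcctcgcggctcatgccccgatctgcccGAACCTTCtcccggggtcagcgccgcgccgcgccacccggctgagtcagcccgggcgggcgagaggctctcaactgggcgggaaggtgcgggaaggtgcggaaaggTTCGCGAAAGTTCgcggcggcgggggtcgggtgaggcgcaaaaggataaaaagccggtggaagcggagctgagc
DNAJB1: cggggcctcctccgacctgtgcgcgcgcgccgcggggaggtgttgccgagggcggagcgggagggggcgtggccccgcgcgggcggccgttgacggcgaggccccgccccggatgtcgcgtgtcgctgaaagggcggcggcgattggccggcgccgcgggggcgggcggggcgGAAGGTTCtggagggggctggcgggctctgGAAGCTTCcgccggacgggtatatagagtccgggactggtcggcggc
HSPB1: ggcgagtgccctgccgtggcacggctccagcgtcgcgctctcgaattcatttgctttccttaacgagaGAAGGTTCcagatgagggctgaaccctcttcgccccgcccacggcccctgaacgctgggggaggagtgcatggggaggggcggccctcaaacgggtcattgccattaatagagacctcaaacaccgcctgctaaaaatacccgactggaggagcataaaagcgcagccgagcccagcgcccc
HSP90AB1: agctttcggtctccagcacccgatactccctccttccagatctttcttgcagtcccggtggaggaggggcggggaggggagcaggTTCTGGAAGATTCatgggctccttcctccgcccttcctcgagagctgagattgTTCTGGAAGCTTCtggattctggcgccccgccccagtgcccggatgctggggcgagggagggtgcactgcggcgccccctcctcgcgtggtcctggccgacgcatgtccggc
These stretches lie at chr6:31815293-31815542 (HSPA1A, plus strand), chr6:31827488-31827737 (HSPA1B, plus), chr1:161524290-161524539 (HSPA6, plus), chr19:14518398-14518647 (DNAJB1, minus), chr7:76302423-76302672 (HSPB1, plus) and chr6:44247693-44247942 (HSP90AB1, plus). HSPA1A and HSPA1B, neighbouring genes that encode near-identical proteins, were alike over 235 of these bases (93.6% identity, with 14 mismatches and 2 gaps), and each held 1 match of 2 units, 2 of CCAAT and 1 of TATAAA. HSPA6 held 1 match of 3 units and HSP90AB1 held 2. DNAJB1 and HSP90AB1 have further promoter windows, and only those with 2-unit letters in the 250 bases are printed. The other HSP90AB1 windows and the DNAJB1 window at chr19:14529222-14529521 held no such letters.

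The endoplasmic reticulum stress element, read here as CCAAT, 9 bases and CCACG on either strand, was a search added after the expression values were seen. It was found in 2 member windows (2.44%), those of HSPA5 and HSP90B1, against 27 of all windows (0.0769%). Both promoters are printed with this element in capitals, for comparison with the 6 above, since both genes encode chaperones of the endoplasmic reticulum.
HSPA5: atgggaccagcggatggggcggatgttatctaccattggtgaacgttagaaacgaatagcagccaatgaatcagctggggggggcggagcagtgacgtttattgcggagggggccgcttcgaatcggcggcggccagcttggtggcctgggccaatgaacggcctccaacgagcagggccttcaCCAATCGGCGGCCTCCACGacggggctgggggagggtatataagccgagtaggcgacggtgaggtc
HSP90B1: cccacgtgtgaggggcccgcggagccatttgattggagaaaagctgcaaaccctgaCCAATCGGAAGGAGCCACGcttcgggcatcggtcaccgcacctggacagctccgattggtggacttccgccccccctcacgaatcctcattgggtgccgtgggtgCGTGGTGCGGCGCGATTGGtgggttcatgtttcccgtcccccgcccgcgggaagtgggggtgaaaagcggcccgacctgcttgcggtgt
HSPA5 lies at chr9:125241344-125241593 on the minus strand and HSP90B1 at chr12:103930160-103930409 on the plus strand. HSPA5 held 1 match and HSP90B1 held 2, and neither held letters for 2 heat shock units. A match is a run of letters and does not show that a factor was bound in these cells.

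Levels between genes were compared in the deposited TPM, which is scaled by gene length. HSP90AB1 had the highest mean over the 8 groups, at 3640 TPM, followed by HSPB1 at 1655 TPM, HSPA8 at 1326 TPM and HSP90AA1 at 1113 TPM. HSPA5 at 833 TPM and HSP90B1 at 801 TPM led the endoplasmic reticulum chaperones, and HSPD1 at 642 TPM led the mitochondrial ones. The strictly inducible HSPA6 had only 1.66 TPM, with group means from 1.22 to 2.65 TPM, while HSPA1A had 81.1 TPM and HSPA1B 61.5 TPM. In all, 14 members had a mean of at least 100 TPM, 31 of 10 to 100 TPM, 16 of 1 to 10 TPM and 11 below 1 TPM. The neighbours HSPA5 and HSP90B1 are not ordered by these values, because their group means overlapped (651.8 to 1087 TPM and 600.1 to 1010 TPM). The filter on low counts left 64 members tested in every comparison and 5 in some of them (HSPA4L, HSPA7, HSPB2, HSPB3 and HSPB9), each of which passed in part because of the groups where it was higher. DNAJB3, DNAJB8 and HSPA2, with at most 2, 4 and 9 counts in any library, were tested in none.

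The main question of the design was how treatment changed expression in each genotype and stage. Before recovery in WT cells, 16 of 66 members tested were higher in treated cells and 18 were lower at an adjusted p below 0.05, while 26.0% of all genes tested were higher and 22.9% lower. In KO cells before recovery, 27 of 64 members were higher and 24 lower (all genes, 35.8% and 34.0%). After recovery, 15 of 64 members were higher and 18 lower in WT cells (23.9% and 23.0%), and 10 of 65 were higher and 15 lower in KO cells (20.2% and 19.9%). The shares of members called thus lay near those of all genes. Beyond a log2 fold change of 1, 6 members were higher and 2 lower in WT cells before recovery (all genes, 13.6% and 5.06%), and 5 were higher and 3 lower in KO cells (14.6% and 5.77%). The 6 include HSPA7, which passed the filter on low counts through the treated WT group, where it was highest. After recovery 2 were higher in WT cells and 1 in KO cells (4.86% and 4.90%), and 0 were lower in either genotype (2.52% and 2.56%). The median log2 fold change of the members was 0.016 in WT and 0.052 in KO cells before recovery and -0.012 and -0.10 after it, beside 0.0058, 0.0009, -0.0005 and -0.023 for all genes tested. Left-out libraries moved the counts in WT cells before recovery by more than 1.5 times. Without WT treated U2OS replicate 1, 9 members were higher and 11 lower, and without WT untreated U2OS replicate 1, the library that stood apart, 24 were higher and 23 lower (all genes, 33.9% and 32.5%). Without KO recovered AID-DIvA replicate 1, 14 members were higher and 18 lower in KO cells after recovery (20.8% and 20.1%).

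**Figure D1:**
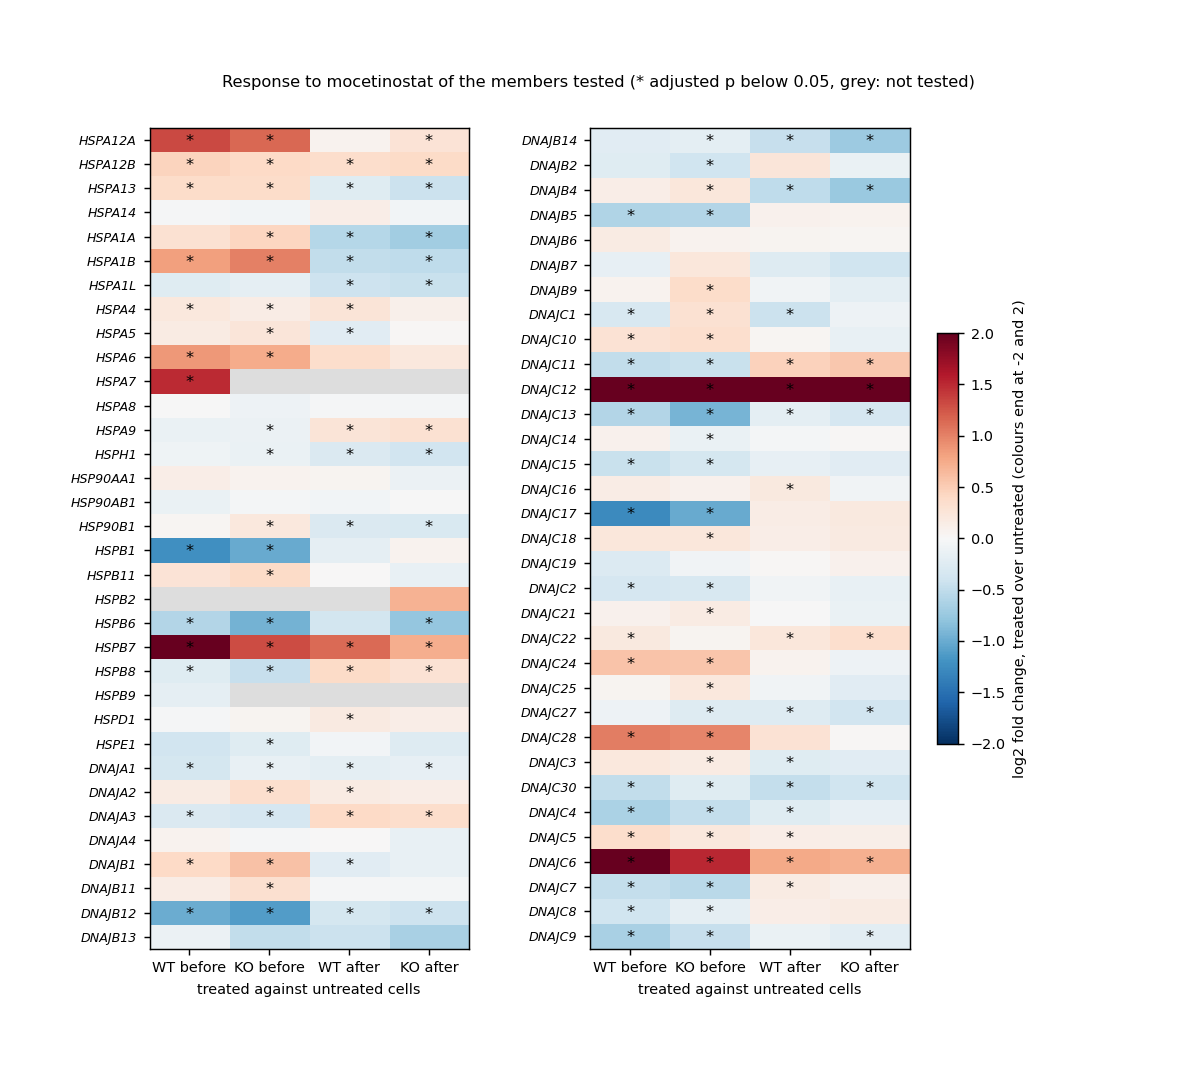
Log2 fold change of treated against untreated cells for each member tested (rows) in the 4 treatment comparisons (columns), with colours that end at 2 in either direction, a star for an adjusted p below 0.05 and grey for members not tested. DNAJC12, DNAJC6 and HSPB7 are high in all 4 columns, DNAJB12 and DNAJC13 are low in all 4, and HSPA1B changes colour between the stages.

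HSPA1B, an inducible cytosolic HSP70, was higher in treated cells before recovery and lower after it in both genotypes. The gene (ENSG00000204388.5, hg19 chromosome 6, 31795512 to 31798031) was counted at 43.28, 36.5 and 34.83 CPM in untreated and 69.5, 65.54 and 66.72 CPM in treated WT U2OS cells, and at 33.93, 30.76 and 33.76 CPM in untreated and 67.37, 65.43 and 64.99 CPM in treated KO cells. Every treated library lay above every untreated one, with log2 fold changes of 0.82 (SE 0.10, adjusted p = 0.00033) in WT and 1.01 (SE 0.05, adjusted p = 2.8e-14) in KO cells. After recovery the order was the opposite one. Untreated WT AID-DIvA cells held 60.97, 56.59 and 60.21 CPM of HSPA1B and recovered ones 39.47, 44.99 and 41.54 CPM, and untreated KO cells held 47.67, 38.99 and 45.63 CPM and recovered ones 30.62, 30.08 and 31.93 CPM. No recovered library reached an untreated one of its genotype, and HSPA1B fell by 0.49 on the log2 scale in WT (SE 0.06, adjusted p = 1.1e-05) and by 0.51 in KO cells (SE 0.09, adjusted p = 0.0012).

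HSPA1A (ENSG00000204389.8, chromosome 6, 31783291 to 31785723), its neighbour, moved in the same directions with a smaller rise. Before recovery it was counted at 74.61, 45.13 and 49.64 CPM in untreated and 69.06, 69.85 and 69.76 CPM in treated WT cells, and at 54.68, 52.22 and 46.33 CPM against 75.19, 60.8 and 68.88 CPM in KO cells. The KO groups did not overlap (log2 0.43, SE 0.07, adjusted p = 3.7e-05). The WT groups overlapped through untreated replicate 1, the library that stood apart. With it the log2 fold change of HSPA1A was 0.31 (SE 0.18, adjusted p = 0.19), and without it 0.56 (adjusted p = 1.2e-16). After recovery HSPA1A was at 80.88, 86.48 and 81.57 CPM in untreated and 53.53, 57.89 and 54.69 CPM in recovered WT cells, and at 64.08, 64.62 and 65.98 CPM against 44.71, 38.86 and 36.83 CPM in KO cells. All recovered libraries were below all untreated ones of their genotype (log2 -0.58, SE 0.05, adjusted p = 7e-07 in WT and log2 -0.70, SE 0.07, adjusted p = 6.2e-05 in KO cells). Reads from both genes may have been split between the near-identical copies. With both summed, the log2 fold changes were 0.54 and 0.69 before and -0.54 and -0.62 after recovery.

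HSPA6, which is almost silent without stress in most cells, was counted at 1.131, 1.089 and 0.7773 CPM in untreated and 2.262, 1.489 and 1.686 CPM in treated WT U2OS cells. In KO cells it was at 1.377, 1.114 and 1.177 CPM against 2.338, 1.761 and 1.982 CPM. The groups did not overlap in either genotype (log2 0.86, SE 0.23, adjusted p = 0.015 in WT and log2 0.74, SE 0.16, adjusted p = 0.00026 in KO cells), although without WT treated replicate 1 the WT value was 0.67 with adjusted p = 0.066. After recovery the log2 fold changes of HSPA6 were 0.36 (adjusted p = 0.072) and 0.21 (adjusted p = 0.3). HSPA7, a near-identical copy of HSPA6 whose reads may be shared with it, was tested under treatment before recovery in WT cells only. It had 17 counts or fewer per library (log2 1.49, SE 0.41), and its call was lost in 3 of 6 refits that left out 1 library. HSPA7 passed the filter on low counts through the treated WT group, where it was highest, so its call is no independent test of a rise.

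DNAJB1, the partner of HSP70 that is induced with it, was counted at 244.8, 226.9 and 234.1 CPM in untreated and 303.9, 304.3 and 312.7 CPM in treated WT U2OS cells, and at 159.1, 161 and 161.5 CPM against 242.6, 240.2 and 240 CPM in KO cells. Treated cells were higher in both genotypes without overlap (log2 0.39, SE 0.07, adjusted p = 0.0023 and log2 0.59, SE 0.04, adjusted p = 9.6e-12). After recovery DNAJB1 fell by 0.23 in WT cells (SE 0.05, adjusted p = 0.0015), and its change in KO cells was -0.15 (SE 0.06, adjusted p = 0.06), or -0.18 (adjusted p = 0.019) without recovered replicate 1.

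HSPA8, HSP90AA1 and HSP90AB1, which are made at all times, had no call under treatment with all libraries in the edgeR fit. HSPA8 ranged from 1622 to 1733 CPM over the 6 WT and from 1884 to 2128 CPM over the 6 KO libraries before recovery and its 4 treatment log2 values were -0.01, -0.10, -0.03 and -0.04, in the order WT and KO before, then WT and KO after recovery. The KO value of HSPA8 before recovery was called lower by DESeq2 (-0.10, adjusted p = 0.03) and with the counts of its own strand (-0.10, adjusted p = 0.04). HSP90AA1 (0.13, 0.08, 0.05 and -0.12) and HSP90AB1 (-0.13, -0.04, -0.06 and -0.01) followed in the same order. Without WT untreated U2OS replicate 1, HSP90AA1 was called higher (0.12, adjusted p = 0.0012) and HSP90AB1 lower (-0.13, adjusted p = 0.00041) in WT cells before recovery. Members called in none of the 4 treatment comparisons, of those tested in all, were these 3 genes, HSPA14, DNAJA4, DNAJB6, DNAJB7, DNAJB13 and DNAJC19. Of these, DNAJB6 was called in WT cells before recovery without that library (0.12, adjusted p = 0.0043). DNAJB7 had only 0.228% of its counts on its own strand, so that its lack of a call says little about DNAJB7 RNA. Counts of DNAJB13 on its own strand were 181% of those from either strand. HSPA1L, the third HSP70 gene at this locus and transcribed against HSPA1A, was lower after recovery in WT (log2 -0.42, adjusted p = 0.0013) and KO cells (log2 -0.45, adjusted p = 0.0075), and its values before recovery were -0.25 and -0.18 with no call.

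The HSP110 genes, which exchange the nucleotide on HSP70, did not move together. HSPH1 was lower after recovery in WT (log2 -0.28, SE 0.05, adjusted p = 0.00055) and KO cells (log2 -0.39, SE 0.10, adjusted p = 0.013), and lower in KO cells before recovery (log2 -0.14, adjusted p = 0.0052). The KO call after recovery was lost without KO untreated AID-DIvA replicate 2 (log2 -0.35, adjusted p = 0.059), and the value was -0.27 (adjusted p = 0.0024) without KO recovered replicate 1. HSPA4 was higher in WT cells at both stages (log2 0.21, adjusted p = 0.041 before and log2 0.26, adjusted p = 0.00061 after recovery) and in KO cells before recovery (log2 0.14, adjusted p = 0.0048). Its KO value after recovery was 0.10 with no call, and 0.20 (adjusted p = 0.010) without KO recovered replicate 1. The WT call of HSPA4 before recovery was lost when any library but untreated replicate 1 was left out (0.18 to 0.24 over the 6 refits). HSPA4L had at most 14 counts per library and was in no treatment comparison. DNAJA1, the most abundant DNAJ member and a partner of HSPA8, was lower in all 4 comparisons, by -0.36 and -0.15 before and -0.19 and -0.17 after recovery on the log2 scale. Its last value (adjusted p = 0.04) lost the call without recovered replicate 2 or 3 or untreated replicate 1 or 2 of the KO cells (-0.18 to -0.12).

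**Figure D2:**
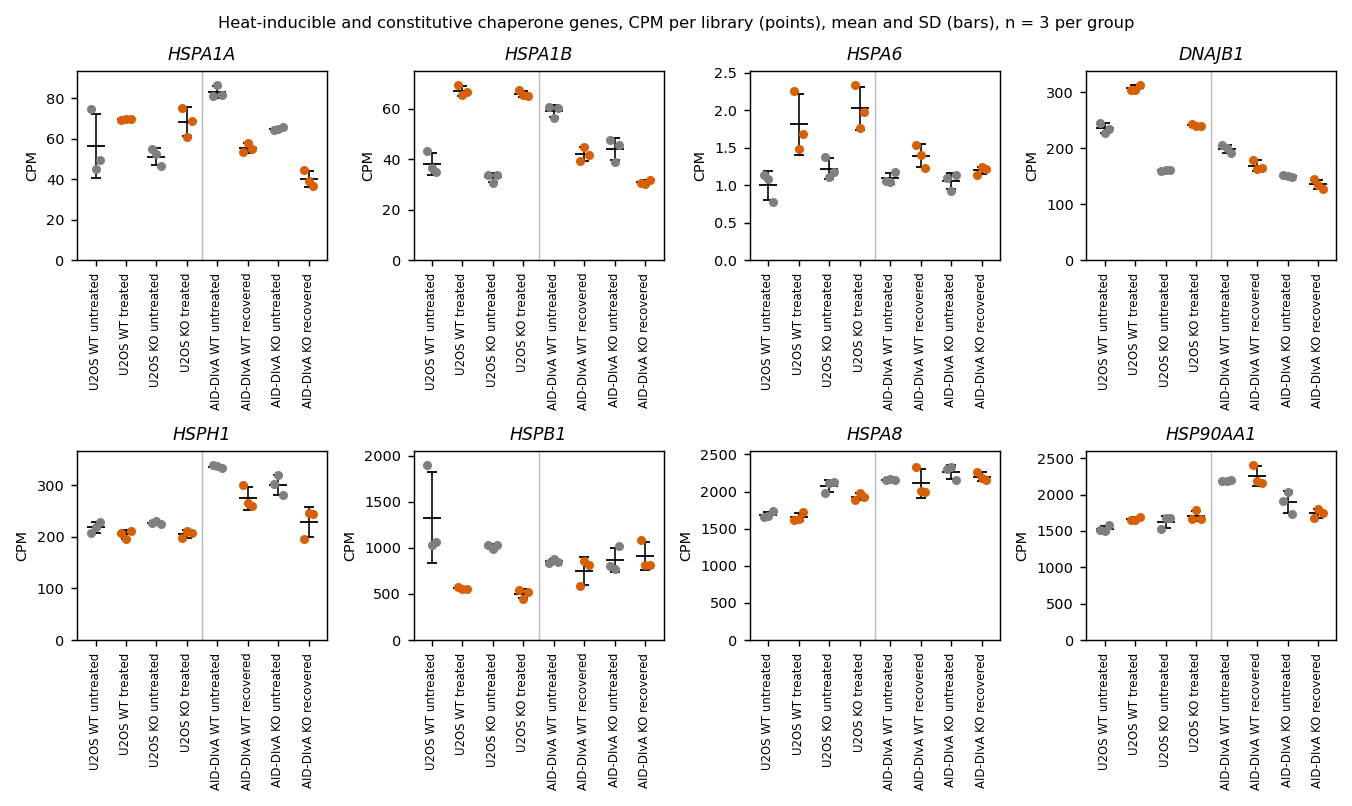
CPM of 8 heat shock genes (linear axes from 0) in the 8 groups, 1 point per library with the group mean and SD (n = 3) as bars. HSPA1B and DNAJB1 points of treated U2OS cells lie above those of their untreated controls, HSPA1B points of recovered AID-DIvA cells lie below theirs, HSPB1 is low in treated U2OS cells of both genotypes, and all HSPA8 points lie between 1622 and 2334 CPM.

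The cytosolic HSP70 list, with HSPA1A, HSPA1B, HSPA1L, HSPA6, HSPA8 and HSPA14 tested, had 2 members higher and 0 lower of 6 tested in WT cells before recovery, 3 and 0 in KO cells, and 0 higher and 3 lower in either genotype after recovery. The shares of all genes higher and lower in these comparisons were 26.0% and 22.9%, 35.8% and 34.0%, 23.9% and 23.0%, and 20.2% and 19.9%. The median log2 fold changes of the list were 0.15, 0.19, -0.22 and -0.25, and without WT untreated U2OS replicate 1, 3 of its members were higher in WT cells before recovery. A list of 12 genes classically induced by heat, which joins HSPA1A, HSPA1B, HSPA6 and HSPA8 with DNAJB1, DNAJA1, HSPH1, HSPB1, HSP90AA1, HSP90AB1, HSPD1 and HSPE1, had 3 higher and 2 lower in WT and 4 higher and 4 lower (33.3% each) in KO cells before recovery, near the shares of all genes. After recovery, 1 was higher and 5 were lower in WT cells, and 0 were higher and 4 lower in KO cells. Without WT untreated U2OS replicate 1, 5 of the 12 were higher and 5 lower in WT cells before recovery (41.7% each, beside 33.9% and 32.5% of all genes).

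The small heat shock proteins, which hold unfolded proteins without using ATP, were called in both directions. Before recovery 1 of 6 tested was higher and 3 lower in WT (all genes, 26.0% and 22.9%) and 2 of 5 higher and 3 lower in KO cells (35.8% and 34.0%), and after it 2 of 5 higher and 0 lower in WT (23.9% and 23.0%) and 2 of 6 higher and 1 lower in KO cells (20.2% and 19.9%). The first of these counts were 2 higher and 2 lower without WT untreated U2OS replicate 1. HSPB1 (HSP27), the second most abundant member, was counted at 1901, 1027 and 1063 CPM in untreated and 576.5, 559.3 and 551.2 CPM in treated WT U2OS cells. In KO cells it was at 1027, 984.1 and 1036 CPM against 542.3, 447.4 and 524.8 CPM. All treated libraries were below all untreated ones, with a high value in WT untreated replicate 1 alone. The log2 fold change of HSPB1 was -1.23 in WT (SE 0.23, adjusted p = 0.0031), or -0.89 without that library, and -1.0 in KO cells (SE 0.06, adjusted p = 1.7e-12). After recovery HSPB1 in treated and untreated cells overlapped in both genotypes, and its values were -0.18 (adjusted p = 0.39) and 0.06 (adjusted p = 0.7).

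HSPB8, which works with BAG3 in selective autophagy, was lower before and higher after recovery in both genotypes. It was counted at 69.47, 68.36 and 64.16 CPM in untreated and 56.29, 55.08 and 58.38 CPM in treated WT U2OS cells (log2 -0.24, adjusted p = 0.024), and in AID-DIvA WT cells at 73.18, 73.83 and 72.74 CPM untreated and 89.62, 94.96 and 100.5 CPM after recovery (log2 0.38, adjusted p = 2.8e-05). KO cells gave -0.46 (adjusted p = 6.7e-09) and 0.30 (adjusted p = 0.0026). None of these 4 pairs of groups overlapped. The WT call of HSPB8 before recovery was lost without untreated replicate 2 or any of the 3 treated replicates (-0.26 to -0.22). HSPB6, at 1.22 CPM or less, was lower before recovery in WT (log2 -0.59, adjusted p = 0.041) and KO cells (log2 -0.94, adjusted p = 0.0011) and after recovery in KO cells (log2 -0.77, adjusted p = 0.018). The WT call of HSPB6 was lost when any library but untreated replicate 2 was left out (-0.72 to -0.50 over the 6 refits), and the KO call after recovery without recovered replicate 3 (-0.65) or untreated replicate 2 (-0.75). HSPB6 had 240.7% as many counts on its own strand as from either strand, and on its own strand it was lower in all 4 comparisons, by -0.73 (adjusted p = 0.0053) and -0.91 (adjusted p = 7.5e-05) before and by -0.59 (adjusted p = 0.0088) and -0.72 (adjusted p = 0.01) after recovery, where the WT value from either strand was -0.37 with no call.

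HSPB7, a small heat shock protein known from heart and skeletal muscle, had the largest rise of a member in WT cells before recovery from a very low level. It was counted at 0.07743, 0.1654 and 0.2654 CPM in untreated and 1.177, 1.032 and 1.291 CPM in treated WT cells, and at 0.3298, 0.4893 and 0.2853 CPM against 0.8409, 0.9905 and 0.9079 CPM in KO cells. All treated libraries were higher, by 2.82 (SE 0.36, adjusted p = 0.00045) and 1.30 (SE 0.25, adjusted p = 7e-05) on the log2 scale. After recovery the values were 1.14 in WT (SE 0.34, adjusted p = 0.014) and 0.72 in KO cells (SE 0.19, adjusted p = 0.015). The first of these was lost without recovered replicate 2 (1.05) or 3 (0.92) or untreated replicate 1 (0.99), and the second without untreated replicate 1 (0.61) or 2 (0.66). HSPB7 had 73.0% of its counts on its own strand, and at most 98 counts in a library. On its own strand its values were 4.33 (SE 0.52) and 1.88 (SE 0.29) before and 0.68 in KO cells after recovery, all called, and it could not be tested in WT cells after recovery. HSPB11, a subunit of the intraflagellar transport complex, was higher in KO cells before recovery (log2 0.38, adjusted p = 7.2e-06), and its WT value of 0.27 (adjusted p = 0.07) was called without untreated replicate 1 (0.38, adjusted p = 1.4e-08). HSPB2, HSPB3 and HSPB9 stayed below 0.5 CPM, and HSPB2 (log2 0.70, adjusted p = 0.095 in KO cells after recovery) and HSPB9 (log2 -0.18, adjusted p = 0.77 in WT cells before recovery) were tested in 1 treatment comparison each. HSPB3, at 13 counts or fewer per library, was tested in none of them.

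The 8 endoplasmic reticulum chaperones of the list used here all rose in KO cells before recovery, where 35.8% of all genes were higher. Their median log2 fold change was 0.31. Outside that list, HYOU1 was higher and the collagen chaperone SERPINH1 lower in KO cells at that stage, with values given below. In WT cells 2 of the 8 listed were higher and 1, DNAJC1, was lower (median 0.16), beside 26.0% and 22.9% of all genes. Without WT untreated U2OS replicate 1, 5 were higher and 1 lower (all genes, 33.9% and 32.5%), with HSPA5 (0.18), DNAJB11 (0.19) and DNAJC3 (0.15) called as well. Outside the list, the HSP70 cochaperone SIL1 (-0.55, adjusted p = 7.7e-11) and SERPINH1 (-1.92) were lower in that refit, and HYOU1 (0.15) was higher. After recovery 5 of 8 were lower in WT cells (median -0.24) and 2 of 8 in KO cells (median -0.17), beside 23.0% and 19.9% of all genes. In either genotype 0 were higher, beside 23.9% and 20.2% of all genes. HSPA5 (BiP), the main HSP70 of this compartment, was counted at 964, 1014 and 1001 CPM in untreated and 1158, 1198 and 1166 CPM in treated KO U2OS cells, and at 1027, 1014 and 976.7 CPM in untreated and 856.5, 850.4 and 849.5 CPM in recovered WT AID-DIvA cells. Neither pair of groups overlapped, and the log2 values were 0.25 (SE 0.04, adjusted p = 1.8e-05) and -0.23 (SE 0.04, adjusted p = 0.00022). The other comparisons of HSPA5 gave 0.17 (adjusted p = 0.079) in WT cells before and 0.02 (adjusted p = 0.77) in KO cells after recovery. HSP90B1 (GRP94) had values of 0.05, 0.21, -0.29 and -0.31 in the order WT and KO before, WT and KO after recovery, the last 3 of them called.

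HSPA13, an HSP70 of the microsomes, was the ER member higher in both genotypes before recovery and lower in both after it, with log2 values of 0.37 (adjusted p = 0.04), 0.37 (adjusted p = 2.2e-07), -0.25 (adjusted p = 0.00055) and -0.44 (adjusted p = 0.008). Its first value lost the call without any 1 of the 3 treated WT libraries (0.35 to 0.39), and was 0.23 without WT untreated replicate 1. DNAJC10, a disulfide reductase, was higher before recovery in WT (log2 0.28, adjusted p = 0.022) and KO cells (log2 0.34, adjusted p = 3.9e-07). Its WT call was also lost without any 1 of the treated WT libraries (0.27 to 0.30). The cochaperones DNAJB9 (0.37, adjusted p = 0.001), DNAJB11 (0.33, adjusted p = 3.7e-07) and DNAJC3 (0.16, adjusted p = 0.011) were higher in KO cells before recovery. In WT cells of that stage they gave 0.07, 0.15 and 0.21 with no call. The KO value of DNAJC3 was not called without KO untreated replicate 2 (0.13), whereas its value after recovery in WT cells was -0.25 (adjusted p = 0.0054).

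The 7 mitochondrial chaperones of the list used for this compartment were lower in treated cells before recovery and higher after it where they were called, whereas DNAJC30, a mitochondrial member outside that list, was lower in all 4 comparisons. Of 7 tested, 0 were higher and 3 lower in WT cells before recovery (median -0.28) and 0 and 5 in KO cells (median -0.24), and after recovery 4 were higher and 0 lower in WT (median 0.18) and 3 and 0 in KO cells (median 0.13). In the same order, the shares of all genes were 26.0% and 22.9%, 35.8% and 34.0%, 23.9% and 23.0%, and 20.2% and 19.9%. Without WT untreated U2OS replicate 1, 5 of the 7 were lower in WT cells before recovery (all genes, 32.5%), and without KO recovered replicate 1, 4 were higher in KO cells after it (20.8%). In the first of these refits 2 mitochondrial chaperone genes outside the members were higher in WT cells before recovery, TRAP1 (0.475, adjusted p = 2e-14) and GRPEL1 (0.28, adjusted p = 9.4e-07). GRPEL2 (0.04) was not called there. Without the same library, the interactions of TRAP1 (-0.13, adjusted p = 0.25) and GRPEL1 (0.07, adjusted p = 0.64) before recovery were not called. The response of TRAP1 and GRPEL1 was thus not shown to differ between genotypes. DNAJC11, a protein of the mitochondrial outer membrane, was counted at 42.6, 52.57 and 52.57 CPM in untreated and 32.14, 35.71 and 36.32 CPM in treated WT U2OS cells, and at 50.36, 50.18 and 49.72 CPM in untreated and 68.43, 68.57 and 69.55 CPM in recovered WT AID-DIvA cells. Neither pair overlapped, and the log2 values were -0.49 (SE 0.10, adjusted p = 0.0051) and 0.47 (SE 0.04, adjusted p = 1.5e-06). In KO cells DNAJC11 gave -0.44 (adjusted p = 1.1e-07) and 0.53 (adjusted p = 0.00049), again without overlap.

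DNAJA3, the DNAJ partner of the mitochondrial HSP70, was likewise lower before recovery (log2 -0.28, adjusted p = 0.011 in WT and log2 -0.33, adjusted p = 9.4e-07 in KO cells) and higher after it (log2 0.40, adjusted p = 5.1e-06 and log2 0.36, adjusted p = 0.0013). The first of these calls was lost without WT treated replicate 1 (-0.28) or 2 (-0.27). HSPA9 (mortalin), the mitochondrial HSP70 itself, was higher after recovery in WT (log2 0.26, adjusted p = 0.00027) and KO cells (log2 0.31, adjusted p = 0.0017). Its KO value before recovery was -0.11 (adjusted p = 0.025), from overlapping groups, and was not called without untreated replicate 2 or 3 or treated replicate 1 or 3 (-0.11 to -0.09). HSPD1 (HSP60) was higher after recovery in WT cells (log2 0.18, adjusted p = 0.012), but not without WT untreated replicate 1 (0.17, adjusted p = 0.056), and was 0.11 without WT recovered replicate 1. Its KO value after recovery was 0.13 with no call, and 0.22 (adjusted p = 0.0083) without KO recovered replicate 1. The cochaperonin HSPE1 was lower before recovery in KO cells (log2 -0.24, adjusted p = 0.0011), and its WT value of -0.39 (adjusted p = 0.071) was called by DESeq2 (-0.40, adjusted p = 0.048) and, at -0.18 (adjusted p = 0.00057), without untreated replicate 1. Part of the HSPE1 locus is shared with the readthrough gene HSPE1-MOB4. DNAJC15, of the import motor of the inner membrane, was lower before recovery in both genotypes (log2 -0.44, adjusted p = 0.0055 and log2 -0.35, adjusted p = 4.5e-05), and DNAJC19 of the same motor was called in none of the treatment comparisons.

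**Figure D3:**
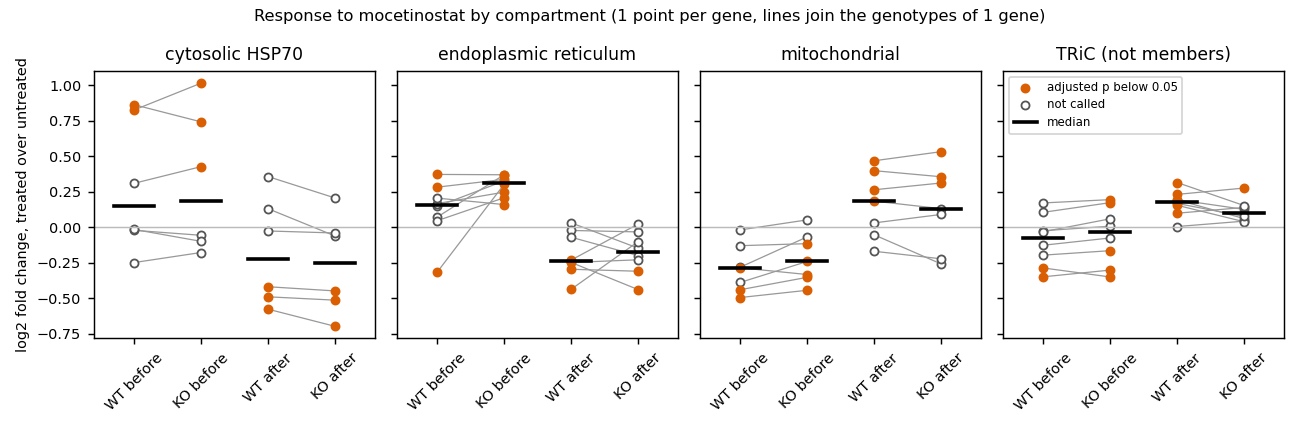
Log2 fold change of treated against untreated cells for each gene (points, filled where the adjusted p is below 0.05, lines joining the genotypes, bars at medians) of the cytosolic HSP70 list, the endoplasmic reticulum chaperones, the mitochondrial chaperones and the TRiC subunits, which are no members. The endoplasmic reticulum medians run from 0.31 in KO cells before recovery to -0.24 in WT cells after it, and the mitochondrial medians from -0.28 to 0.18.

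Outside these groups, DNAJC12 and DNAJC6 were higher in treated cells in all 4 comparisons. DNAJC12, a cochaperone of the aromatic amino acid hydroxylases, was counted at 1.44, 0.9921 and 1.232 CPM in untreated and 5.518, 5.835 and 6.361 CPM in treated WT U2OS cells, and at 0.7371, 0.5568 and 0.5171 CPM against 5.651, 5.539 and 4.646 CPM in KO cells. The groups did not overlap in either genotype. The log2 fold changes of DNAJC12 were 2.29 (SE 0.16, adjusted p = 2.4e-05) and 3.14 (SE 0.15, adjusted p = 2.1e-14) before and 2.20 (SE 0.14, adjusted p = 4.1e-08) and 2.59 (SE 0.19, adjusted p = 7.3e-06) after recovery. DNAJC6 (auxilin), which uncoats clathrin vesicles, was counted at 3.717, 5.526 and 6.295 CPM in untreated and 19.55, 21.99 and 22.52 CPM in treated WT U2OS cells, and at 8.593, 9.094 and 8.666 CPM against 25.97, 25.04 and 23.86 CPM in KO cells. Its log2 fold changes were 2.06 (SE 0.18, adjusted p = 6.9e-05) and 1.51 (SE 0.06, adjusted p = 1.1e-15) before and 0.75 (adjusted p = 2.9e-05) and 0.71 (adjusted p = 0.00016) after recovery, with no overlap in any of the 4.

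HSPA12A, a distant HSP70 relative, was higher by 1.32 (SE 0.12, adjusted p = 7.5e-05) in WT and 1.15 (SE 0.05, adjusted p = 3e-15) in KO cells before recovery. Its untreated U2OS libraries lay between 22.55 and 32.14 CPM and its treated ones between 67.3 and 69.34 CPM. After recovery it was called in KO cells only, with log2 0.27 (adjusted p = 0.0096) against 0.06 in WT cells (adjusted p = 0.35), and the interaction (0.22, adjusted p = 0.29) was not called. HSPA12B was higher in all 4 comparisons (log2 0.44, 0.40, 0.36 and 0.38, the first of them lost in 4 of 6 refits), but only 1.19% of its counts lay on its own strand. On that strand it could be tested in WT cells before recovery alone, with a log2 value of -0.04 (SE 0.43, adjusted p = 0.95). DNAJC28 was higher before recovery in WT (log2 1.02, adjusted p = 0.00044) and KO cells (log2 0.97, adjusted p = 2.1e-06). After recovery its values were 0.29 and 0.03 with no call. DNAJC22 was higher after recovery in WT (log2 0.23, adjusted p = 0.028) and KO cells (log2 0.33, adjusted p = 0.015). The KO call was lost without recovered replicate 2 (0.32) or untreated replicate 2 (0.27), and the WT call in 5 of 6 refits (0.16 to 0.31).

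DNAJB12, a DNAJ protein of the endoplasmic reticulum membrane that faces the cytosol, was lower in all 4 comparisons. It was counted at 106.7, 98.25 and 98.46 CPM in untreated and 51.8, 50.28 and 50.19 CPM in treated WT U2OS cells, and at 95.24, 97.64 and 95.29 CPM against 43.09, 43.23 and 45.94 CPM in KO cells. The groups did not overlap, with log2 fold changes of -0.98 (SE 0.07, adjusted p = 2.7e-05) and -1.12 (SE 0.05, adjusted p = 9e-16). After recovery DNAJB12 was still lower in treated cells, by -0.36 (adjusted p = 4e-05) in WT and -0.42 (adjusted p = 0.0017) in KO cells. Its paralog DNAJB14 and the cytosolic DNAJB4 were lower after recovery, DNAJB14 by -0.46 (adjusted p = 2.3e-05) and -0.72 (adjusted p = 0.0066) and DNAJB4 by -0.51 (adjusted p = 1.2e-05) and -0.74 (adjusted p = 0.0038) in WT and KO cells. Without KO recovered replicate 1 the KO values were -0.53 for DNAJB14 and -0.56 for DNAJB4, both called. DNAJC13, a protein of endosomes, was lower in all 4 comparisons (-0.59, -0.93, -0.20 and -0.34). Its first call was lost without any 1 of the treated WT libraries and its last without KO untreated replicate 1 or 2. The mitochondrial DNAJC30 was also lower in all 4 (-0.49, -0.24, -0.48 and -0.40). Its first value was -0.30 (adjusted p = 0.007) without WT untreated replicate 1, and lost the call in 4 of the 6 refits.

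DNAJC17, which contains an RNA recognition motif, was called lower before recovery and not called after it. It was counted at 21.43, 15.47 and 15.6 CPM in untreated and 7.26, 6.828 and 7.586 CPM in treated WT U2OS cells (log2 -1.27, SE 0.14, adjusted p = 0.00027), and at 15.32, 15.15 and 15.82 CPM against 8.039, 7.612 and 7.203 CPM in KO cells (log2 -1.01, SE 0.07, adjusted p = 8.1e-12). No treated library reached an untreated one. After recovery its values were 0.15 (adjusted p = 0.084) and 0.20 (adjusted p = 0.085). DNAJB5 (-0.60 and -0.59), the histone chaperone DNAJC9 (-0.66 and -0.46), DNAJC4 (-0.63 and -0.47) and DNAJC7 (-0.47 and -0.54), a cochaperone of HSP70 and HSP90, were also lower in both genotypes before recovery. Counts of DNAJC9 on its own strand were 324% of those counted from either strand, and on its own strand its values were -0.80 and -0.50.

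The 2 stages were set against each other by the difference of the responses, after minus before recovery, averaged over genotypes in 1 fit of the 24 libraries. Of 68 members tested, 17 had a higher response after recovery and 25 a lower one, beside 27.9% and 29.6% of all genes, and the median was -0.097 against -0.034 for all genes. HSPA1B (-1.42, SE 0.08, adjusted p = 3.4e-14), HSPA12A (-1.06, adjusted p = 1e-11), DNAJC6 (-1.05, adjusted p = 2.2e-08) and HSPA1A (-1.0, SE 0.12, adjusted p = 8e-08) were the 4 lowest differences named by the rule, which asks for a mean of at least 1 CPM. DNAJC17 (1.31, adjusted p = 1.5e-11), HSPB1 (1.07, SE 0.18, adjusted p = 2.4e-05), DNAJC11 (0.97, adjusted p = 7e-11) and HSPB8 (0.69, adjusted p = 7e-11) were the 4 highest. All 8 listed endoplasmic reticulum chaperones had a lower response after recovery (median -0.36) and 5 of 7 listed mitochondrial chaperones a higher one (median 0.24). Both counts held without WT untreated U2OS replicate 1. Without KO recovered AID-DIvA replicate 1 all 7 mitochondrial ones were called higher. Of the listed genes, DNAJB9 lost the call without WT recovered AID-DIvA replicate 3 (-0.31). DNAJC15 (0.20) lost it in 7 and DNAJC19 (0.24, and 0.14 without WT untreated U2OS replicate 1) in 11 of the 24 refits that left out 1 library. HSPB3, at 13 counts or fewer, passed the filter in part through groups where it was higher. Its call (-1.40) was lost in 10 of these refits. HSPB7 gave -1.13 (adjusted p = 0.0022). Genes outside the endoplasmic reticulum list went both ways in the refit without WT untreated U2OS replicate 1. There the HSP70 cochaperone SIL1 (0.69), SERPINH1 (1.86) and DNAJB12 (0.66) had a higher response. HYOU1 (-0.33) and DNAJB14 (-0.34) had a lower one. Since the first stage was measured in U2OS and the second in AID-DIvA cells, stage and line cannot be told apart in these differences.

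The second question was what differed between KO and WT cells without treatment. In U2OS cells 4 of 64 members were higher and 3 lower in KO cells, where 6.56% and 8.63% of all genes were, and in AID-DIvA cells 12 of 65 were higher and 17 lower, where 18.6% and 18.1% were. The medians were 0.022 and 0.020 for members and -0.010 and 0.0009 for all genes. The U2OS counts rested on WT untreated replicate 1, without which 13 members were higher (20.3%) and 11 lower (17.2%), beside 20.5% and 20.6% of all genes. They also rested on the other WT libraries, since without WT untreated replicate 2 only 1 member was higher and without replicate 3 only 1 was lower. DNAJC6, DNAJC15 and HSPA14 were higher and DNAJB1, DNAJC7 and DNAJC12 lower in KO cells of both lines, and 0 members were called in opposite directions.

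HSPA14, an HSP70 protein bound to ribosomes, was higher in KO cells. It was counted at 30.4, 26.72 and 30.9 CPM in WT and 53.3, 52.49 and 50.48 CPM in KO U2OS cells, and at 37.33, 38.29 and 38.3 CPM in WT and 65.71, 68.38 and 63.11 CPM in KO AID-DIvA cells. All KO libraries were above all WT ones, by 0.83 (SE 0.08, adjusted p = 0.00069) and 0.77 (SE 0.05, adjusted p = 3e-09) on the log2 scale. DNAJB1 fell by 0.55 (SE 0.07, adjusted p = 0.0018) and 0.43 (SE 0.04, adjusted p = 8.1e-07), with 205.7, 199.5 and 191.9 CPM in WT and 151.4, 150.8 and 147.6 CPM in KO AID-DIvA cells and no overlap in either line. DNAJC12 was lower by -1.02 (adjusted p = 0.024) and -0.76 (adjusted p = 0.017), at 1.44 CPM or less in untreated cells. The U2OS call of DNAJC12 was lost without WT untreated replicate 3, where DNAJB1 was the only member called lower. It was kept without WT untreated replicate 1 (-0.87, adjusted p = 0.0036). DNAJC6 was higher by 0.76 (adjusted p = 0.028) and 0.56 (adjusted p = 0.00011), and the U2OS call was lost without WT untreated replicate 2 (0.82) or any KO replicate (0.74 to 0.78). DNAJC15 (0.33, adjusted p = 0.044 and 0.37, adjusted p = 0.00024) and DNAJC7 (-0.28, adjusted p = 0.044 and -0.47, adjusted p = 7.1e-07) kept their U2OS calls only in the refit without WT untreated replicate 1, among the 6 that left out 1 library. The same held for HSPA8 (0.29, adjusted p = 0.028), which was called in U2OS cells only.

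In AID-DIvA cells 7 of the 12 classically heat-induced genes were lower in KO cells and 0 higher (median -0.16), where 18.1% and 18.6% of all genes were. HSPA1A was lower by -0.38 (SE 0.05, adjusted p = 8.1e-06) and HSPA1B by -0.45 (SE 0.07, adjusted p = 5.5e-05). HSP90AA1 (-0.23, adjusted p = 0.0015), HSPD1 (-0.25, adjusted p = 0.00043), HSPH1 (-0.18, adjusted p = 0.0042), DNAJB1 and HSP90AB1 (-0.14, adjusted p = 0.022) were the others. The HSP90AB1 call was lost without any 1 WT library or KO replicate 1 (-0.16 to -0.11). Of the same 12 genes in U2OS cells, 1 was higher and 1 lower. HSPB7 was higher in KO AID-DIvA cells (log2 1.72, SE 0.28, adjusted p = 0.00017), where WT libraries held 0.1415, 0.189 and 0.2373 CPM and KO libraries 0.5327, 0.6015 and 0.8311 CPM. The mitochondrial list of 7 had 1 member higher and 4 lower, and the endoplasmic reticulum list of 8 had 4 higher and 1 lower. DNAJB11, a partner of BiP, led the higher ones at 0.32 (SE 0.04, adjusted p = 1.7e-05), and HSPA5 was the lower one at -0.22 (SE 0.04, adjusted p = 0.00085). The calls of HSP90B1 (0.15, adjusted p = 0.032) and DNAJC3 (0.15, adjusted p = 0.047) were each lost in 5 of 6 refits, the exceptions being those without KO untreated replicate 3, and HSP90B1 was at 0.093 without KO untreated replicate 2.

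**Figure D4:**
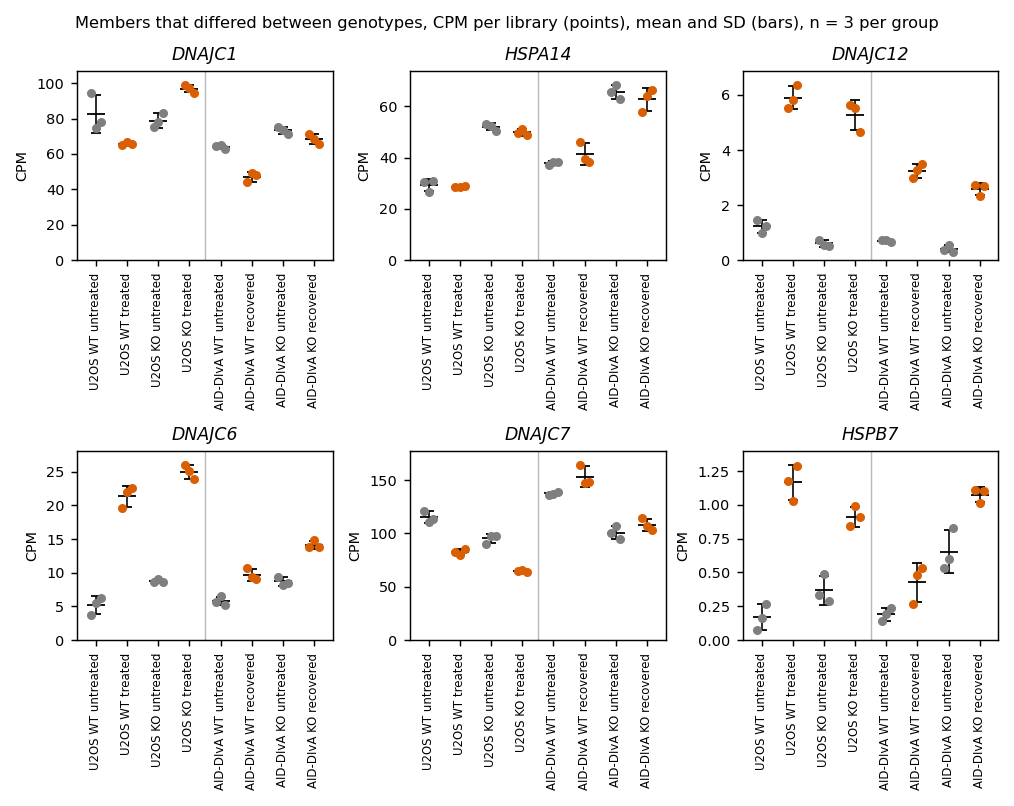
CPM of DNAJC1, HSPA14, DNAJC12, DNAJC6, DNAJC7 and HSPB7 (linear axes from 0) in the 8 groups, 1 point per library with the group mean and SD (n = 3) as bars. HSPA14 separates KO from WT libraries at every stage and treatment, DNAJC12 rises with treatment in each genotype, and DNAJC1 goes down in treated WT and up in treated KO U2OS cells.

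The third question was whether the response to treatment differed by genotype. Before recovery 1 of 66 members had a more positive response in KO cells and 0 a more negative one (all genes, 1.10% and 1.06%), and after recovery 1 of 67 and 0 (0.762% and 0.451%). The median interaction of the members was 0.016 and -0.053, beside 0.0068 and -0.017 for all genes. DNAJC1, an endoplasmic reticulum membrane protein that binds BiP and ribosomes (hg19 chromosome 10, 22045466 to 22292698), was the member called at both stages. It was counted at 94.61, 74.9 and 77.81 CPM in untreated and 64.82, 66.89 and 65.73 CPM in treated WT U2OS cells, and at 75.24, 78.05 and 83.38 CPM against 98.74, 97.29 and 94.61 CPM in KO cells. Treated WT libraries were below and treated KO libraries above their untreated controls, with no overlap (log2 -0.32, SE 0.10, adjusted p = 0.035 and log2 0.30, SE 0.05, adjusted p = 4.8e-06). The interaction was 0.62 (SE 0.12, adjusted p = 0.011), and 0.51 (adjusted p = 1.8e-07) without WT untreated replicate 1. The WT value alone was not called without any 1 of the 3 treated WT libraries (-0.33 to -0.31), and was -0.21 without untreated replicate 1.

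After recovery DNAJC1 was counted at 64.27, 64.93 and 63 CPM in untreated and 44.02, 49.11 and 48.09 CPM in recovered WT cells, and at 75.28, 73.62 and 71.1 CPM against 71.28, 68.34 and 65.46 CPM in KO cells. It was lower in WT cells (log2 -0.44, SE 0.05, adjusted p = 1.4e-05) and, with overlapping groups, -0.10 in KO cells (adjusted p = 0.2). The interaction of 0.34 (SE 0.08, adjusted p = 0.04) was lost in 9 of the 12 refits that left out 1 library (0.29 to 0.38 over the 12), and kept without WT recovered replicate 2 or KO recovered replicate 1 or 3. Before recovery the library that stood apart also bore on 4 further interactions, which were not called with all libraries and were called without it, those of DNAJC6 (-0.36, adjusted p = 0.022), DNAJB2 (-0.33, adjusted p = 0.0002), HSPB8 (-0.24, adjusted p = 0.011) and DNAJB1 (0.17, adjusted p = 0.037). Without that library 2.99% of members had a more positive and 4.48% a more negative response in KO cells, beside 4.46% and 4.56% of all genes.

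Of 39 pathway genes outside the members (heat shock factors, cochaperones, the TRiC chaperonin and others), 4 were higher and 8 lower in WT and 13 higher and 13 lower in KO cells before recovery, and 19 were higher and 4 lower in WT and 11 higher and 1 lower in KO cells after it. These were 10.3% and 20.5%, 33.3% and 33.3%, 48.7% and 10.3%, and 28.2% and 2.56% of the 39, beside 26.0% and 22.9%, 35.8% and 34.0%, 23.9% and 23.0%, and 20.2% and 19.9% of all genes. Left-out libraries moved these counts. Without WT untreated U2OS replicate 1, 13 were higher and 13 lower in WT cells before recovery (33.3% each, beside 33.9% and 32.5% of all genes). The counts lower fell to 4 without treated replicate 1 and 5 without treated replicate 2. Without WT recovered replicate 1, 12 were lower in WT cells after recovery. In KO cells after it the count higher was 14 without recovered replicate 1 and 7 without recovered replicate 2 or untreated replicate 1 or 2, and the count lower was 5 without recovered replicate 3. HSF1, the factor that drives the heat shock response, was lower before recovery (log2 -0.41, adjusted p = 0.039 in WT and log2 -0.44, adjusted p = 1.3e-06 in KO cells) and higher after it (log2 0.25, adjusted p = 0.00046 and log2 0.24, adjusted p = 0.031). Its first value was -0.23 (adjusted p = 6.6e-08) without WT untreated replicate 1 and lost the call without any 1 of the treated WT libraries, and its last call was lost in 3 of 6 refits (0.18 to 0.32). HSF2 was higher before recovery (log2 0.27, adjusted p = 0.014, lost without WT treated replicate 1 or 2, and log2 0.39, adjusted p = 2.3e-06), and its values after it were 0.11 and -0.04 with no call. BAG3, a nucleotide exchange factor of HSP70 that is induced by heat, gave 0.20, 0.32, -0.21 and -0.10, of which the KO value before and the WT value after recovery were called. HYOU1, an HSP110 relative of the endoplasmic reticulum, gave 0.19, 0.19, -0.33 and -0.03 with calls in the same comparisons. The first values of both were called without WT untreated U2OS replicate 1, at 0.23 (adjusted p = 1.6e-06) for BAG3 and 0.15 (adjusted p = 9.3e-05) for HYOU1. Of the 39 pathway genes, 0 had a called interaction after recovery and 1, CRYAB, had one before it. Without WT untreated U2OS replicate 1, 2 of the 39 had a higher and 1 a lower interaction before recovery (all genes, 4.46% and 4.56%).

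SERPINH1 (HSP47), the collagen chaperone, was lower before recovery by -2.03 (SE 0.11, adjusted p = 6.5e-06) in WT and -2.07 (SE 0.05, adjusted p = 3.7e-20) in KO cells and after it by -0.30 (adjusted p = 0.0017) in WT cells. Its value in KO cells after recovery was -0.01 (adjusted p = 0.93). CRYAB, the small heat shock protein alpha B-crystallin, whose symbol falls outside the naming rule, was counted at 3.903, 3.197 and 2.901 CPM in WT and 30.12, 30.12 and 31.81 CPM in KO untreated U2OS cells. KO cells were higher by 3.20 (SE 0.12, adjusted p = 1.4e-05) there and by 4.08 (SE 0.07, adjusted p = 3e-15) in AID-DIvA cells, with no overlap. Treatment before recovery gave 0.89 (adjusted p = 0.0013) in WT and -0.24 (adjusted p = 0.00047) in KO cells, an interaction of -1.12 (SE 0.14, adjusted p = 0.00043), and after recovery 1.18 and 1.17, where the interaction was -0.01 (adjusted p = 0.99). Of the 8 TRiC subunits, 0 were higher and 2 lower in WT (all genes, 26.0% and 22.9%) and 2 higher and 3 lower in KO cells before recovery (35.8% and 34.0%). After it 7 were higher in WT (23.9%) and 1 in KO cells (20.2%), with 0 lower in either. At both stages 0 of the 8 had a called interaction, so that the response of these subunits was not shown to differ between genotypes. The WT counts before recovery were 2 higher and 3 lower, the numbers seen in KO cells, without WT untreated U2OS replicate 1, and the count lower was 0 without treated replicate 1 and 1 without treated replicate 2. In KO cells after recovery 4 were higher without recovered replicate 1.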

How the data were processed

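RNA was sequenced from 24 libraries (stranded total RNA, paired reads) in 8 groups of 3 biological replicates. The authors aligned reads with STAR to hg19 and counted them per gene with featureCounts (versions not given in the sources used here). The deposited files hold raw counts, here those from either strand, and TPM made by the authors, which were used only to compare levels between genes. The untreated controls are named DMSO in supplementary headings.

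Each comparison was fitted on the counts of all genes with edgeR 4.0.16 in R 4.3.3 (limma 3.58.1; TMM scaling, filterByExpr, robust quasi-likelihood test, Benjamini-Hochberg adjustment over all genes tested, call at an adjusted p below 0.05). Treatment and untreated comparisons used the 6 libraries compared, interactions 12, and the difference between stages 24. CPM were scaled by TMM over the 24 libraries. Scripts were tested on simulated data. Python 3.11.15, pandas 2.3.3 and matplotlib 3.10.9 made tables and figures.

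Named were all detected members of the role lists, the 6 highest and 6 lowest called members of each treatment comparison and the 4 highest and lowest of the untreated and stage comparisons (mean of at least 1 CPM, no overlap of groups), and every member with an interaction. The members and lists were chosen with earlier results of these data known. Alternatives were DESeq2 1.42.0, RLE scaling, no filter, at least 10 counts in every library, counts of the gene's own strand, a replicate block, all 4 groups of a line in one fit, and each library left out. Replicate numbers did not pair the libraries.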

Additional observations from a re-analysis of the deposited data

Results flagged for a closer look

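The response to mocetinostat differed between genotypes, by a test of the interaction, for 1 member at each stage. For DNAJC1 the response of KO minus that of WT cells was 0.62 before recovery (SE 0.12, adjusted p = 0.011) and 0.34 after it (SE 0.08, adjusted p = 0.04). The later call was lost in 9 of the 12 refits that left out 1 library. Without WT untreated U2OS replicate 1, the library that stood apart, 5 members had an interaction before recovery, 2 of them higher and 3 lower. These were 2.99% and 4.48% of the members tested, beside 4.46% and 4.56% of all genes. Outside the members, the interaction of CRYAB was -1.12 before recovery (SE 0.14, adjusted p = 0.00043).

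The response after recovery differed from that before it, by the test of the difference, for the 8 members named for this comparison. The differences were 1.31 for DNAJC17, 1.07 for HSPB1, 0.97 for DNAJC11 and 0.69 for HSPB8, and -1.42 for HSPA1B, -1.06 for HSPA12A, -1.05 for DNAJC6 and -1.0 for HSPA1A, all on the log2 scale. Stage and cell line cannot be told apart in these differences. No sample was tested as an outlier within its group, because groups held 3 libraries.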

How the results depend on the processing

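Of 392 counts of members called under an alternative, 340 stayed within 1.5 times the reported count and 52 moved. Of 2483 refits of named calls, 2327 kept the call, 156 lost it and 0 changed direction. These totals cover the calls named by the rule. Pathway genes and other members were refitted with each library left out, but are not in the totals.

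With at least 10 counts in every library, 1 member was lower beyond log2 1 in KO cells before recovery and 1 higher in WT cells after it, and the own-strand counts also gave 1 for the latter. With all 4 groups in one fit, 1 member was lower beyond log2 1 in KO cells after recovery, and 9 were higher and 6 lower in untreated KO U2OS cells. For the interaction before recovery, DESeq2 gave 2 higher and 1 lower and no filter gave 2 and 2. For the interaction after recovery, DESeq2 gave 2 higher, no filter 3 higher and 1 lower, and at least 10 counts 2 higher. The cause of these moves was not tested.

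With 1 library left out, the counts higher and lower ranged from 9 to 24 and 11 to 23 in WT cells before recovery, from 1 to 13 and 1 to 11 in untreated KO against WT U2OS cells, from 1 to 2 and 0 to 3 for the interaction before recovery and from 0 to 2 and 0 to 1 for that after it. Beyond log2 1, the counts lower ranged from 1 to 3 in WT and 1 to 3 in KO cells before recovery and 0 to 1 in KO cells after it, and the counts higher from 1 to 2 in WT and 1 to 2 in KO cells after recovery.

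Libraries with the same replicate number did not deviate together (r from -0.3 to 0.184). With the replicate block, 2 members were higher in untreated KO U2OS cells and 0 had a higher interaction after recovery, and 11 of 156 named calls were lost.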
